A study of Homo sapiens with 6 samples.

Results

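Lineage marker genes show which epithelium a tumor cell line resembles, and 10 of them were followed in OVCAR5 cells under SpiD7: PAX8, WT1, MUC16, MSLN, WFDC2, EPCAM, CDH1, CDH2, VIM and CDX2. They were chosen by gene symbol, and all 10 were found among the 29982 gene symbols of the expression table. OVCAR5 is an established human ovarian cancer cell line, and SpiD7 is a small molecule, known by its code name, that the study used to activate the unfolded protein response. RNA was sequenced from 6 libraries, namely 2 of cells given the vehicle DMSO, 2 of cells exposed to 10 μM SpiD7 over 2 h, 1 of cells exposed over 6 h and 1 of cells exposed over 12 h. The labels give no duration for the vehicle and do not say whether replicates came from separate dishes, so p-values measure only the spread between these samples, which may be technical. All groups share a single cell line, and no normal epithelium was sequenced here.

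Epithelial tumors of the ovary are classified in part by proteins kept from the tissue they resemble. PAX8 and WT1 are transcription factors used to recognize serous tumors of the Müllerian tract, whereas CDX2 is the transcription factor that specifies intestinal epithelium. CDH1 (E-cadherin) and EPCAM hold epithelial cells together, and loss of CDH1 with gain of CDH2 (N-cadherin) and VIM (vimentin) is the usual description of a shift to the mesenchymal state.

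Expression was given as FPKM (fragments mapped to a transcript, divided by its length and by the mapped reads of the library), so that levels can be compared between genes of different length. The second deposited column of DMSO and of 2 h is named as replicate 2 but was read here as the mean of both libraries. The authors did not describe it so, and replicate 2 was recovered from that column by subtraction. The other 4 libraries were used as deposited, after scaling 6 h and 12 h through the DMSO library that they share. The read depth relative to DMSO replicate 1, taken from the steps between low values, was 0.769 to 1.11, and total depth is unknown. Replicate 2 stood apart from replicate 1 in both groups, since 7.61% of the 13287 genes with a mean of at least 1 FPKM differed more than 2-fold in the same direction in both. Each result is therefore given by library.

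Of the 10 members, 7 reached 1 FPKM in every library and 3 in none, and the 7 are called expressed. A mean of at least 1 FPKM over the 6 libraries was reached by 7 of 10 members, and each of these also exceeded 1 FPKM in all 6. Among all 29982 gene symbols 13287 reached that mean, and the shares were not compared by a test. From the highest mean down, the order was VIM with 445 FPKM, WFDC2 with 164 FPKM, EPCAM with 81.7 FPKM, CDH1 with 14.1 FPKM, MSLN with 3.24 FPKM, CDX2 with 2.82 FPKM and PAX8 with 1.83 FPKM. MUC16 had a mean of 0.324 FPKM, WT1 of 0.1003 FPKM and CDH2 of 0.0134 FPKM, and none of these 3 reached 1 FPKM in any library. The libraries of neighbors in this order did not overlap, except that CDX2 overlapped both MSLN and PAX8, and MUC16 overlapped WT1. VIM was in place 233 of all gene symbols by its mean, WFDC2 in place 575 and EPCAM in place 1224, while PAX8 was in place 12098.

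**Figure D1:**
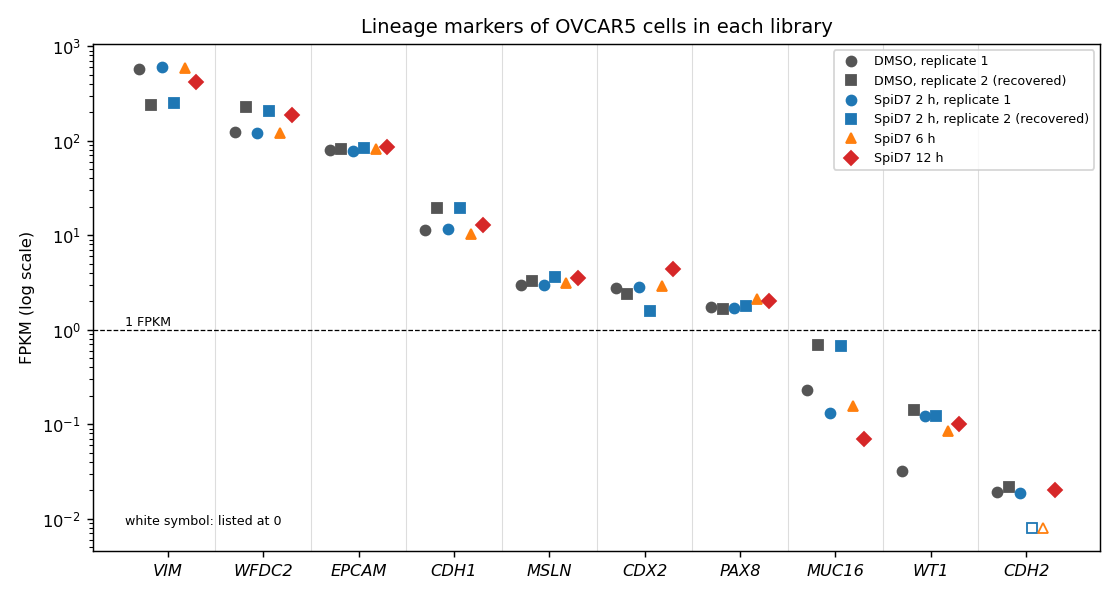
FPKM (log axis) of the 10 lineage markers in each of the 6 libraries, with 1 symbol per library and a dashed line at 1 FPKM. VIM, WFDC2 and EPCAM lie above 77 FPKM in every library, MUC16, WT1 and CDH2 lie below 1 FPKM, and white symbols mark libraries listed at 0.

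The transcription factors that separate Müllerian from intestinal epithelium were both listed at low levels, and the PAX8 values may include reads of an antisense gene. PAX8 (chr2:113215997-113278950, minus strand, GRCh38) measured 1.73 and 1.64 FPKM in the DMSO libraries, 1.70 and 1.79 FPKM at 2 h, 2.12 FPKM at 6 h and 2.00 FPKM at 12 h. The 2 h libraries overlapped the DMSO libraries, and the 6 h and 12 h libraries were above both of them. At 2 h the log2 difference from DMSO was 0.05 ± 0.16 (SE, n = 2 per group, limma adjusted p = 1.0), with a 95% interval of -0.41 to 0.51. PAX8 was 1.24-fold higher at 6 h and 1.18-fold higher at 12 h than the DMSO mean, without a test because each time has 1 library.

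PAX8 shares 685 of its 7400 exonic bases (9.26%) with PAX8-AS1 on the opposite strand. The library kit did not mark strand, so reads from the shared bases cannot be told apart. PAX8-AS1 was listed at 29.1 to 35.8 FPKM over the 6 libraries, far above PAX8, and the part of its reads in the PAX8 values was not tested. The listed level therefore does not show how much PAX8 itself was expressed.

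CDX2 (chr13:27962137-27971139, minus strand) measured 2.79 and 2.42 FPKM with DMSO and 2.82 and 1.58 FPKM at 2 h. It measured 2.88 FPKM at 6 h and 4.403 FPKM at 12 h. The 2 h libraries lay on either side of the DMSO libraries, with replicate 2 the lowest of all 6, and the 12 h library was the highest. The log2 difference at 2 h was -0.28 ± 0.35 (SE, limma adjusted p = 1.0, 95% interval -1.31 to 0.74). At 12 h CDX2 was 1.67-fold above the DMSO mean, the largest difference at that time among the 7 expressed members, and 0.64 and 0.84 above the DMSO libraries on the log2 scale. This single library has no replicate check, and the 2 h replicates differed from each other by 0.80 on the same scale.

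WT1 (chr11:32387775-32435630, minus strand) was listed at 0.0316 and 0.141 FPKM with DMSO, 0.122 and 0.122 FPKM at 2 h, 0.0852 FPKM at 6 h and 0.0996 FPKM at 12 h. Corrected for relative depth, these values lay within 0.1 of 1, 4, 4, 3, 3 and 3 times the lowest of them. Differences in WT1 between libraries were thus not detectable at this depth, and WT1 was not tested. WT1-AS, the antisense transcript at the same locus, was listed at 0 in all 6 libraries.

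The secreted and surface antigens of ovarian cancer ranged from abundant to barely detected. WFDC2 (chr20:45469706-45481532, plus strand) encodes HE4, a secreted protein measured in serum as an ovarian cancer marker. It measured 123 and 229.9 FPKM with DMSO, 121 and 206 FPKM at 2 h, 120.5 FPKM at 6 h and 185 FPKM at 12 h. The libraries fell by replicate and not by treatment, with replicate 1 of both groups and the 6 h library close together, both replicates 2 higher, and the 12 h library between the DMSO libraries. At 2 h the log2 difference was -0.09 ± 0.47 (SE, limma adjusted p = 1.0, 95% interval -1.49 to 1.30). Replicate 2 was 1.87-fold above replicate 1 with DMSO and 1.70-fold above it at 2 h.

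MSLN (chr16:760762-768865, plus strand) encodes mesothelin, a lipid-anchored surface protein. It measured 2.95 and 3.29 FPKM with DMSO, 2.97 and 3.59 FPKM at 2 h, 3.13 FPKM at 6 h and 3.52 FPKM at 12 h. All 6 libraries lay close together, and the groups overlapped at 2 h. The log2 difference at 2 h was 0.06 ± 0.19 (SE, limma adjusted p = 1.0, 95% interval -0.50 to 0.63), and the 12 h library was 1.12-fold above the DMSO mean.

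MUC16 (chr19:8848844-8981342, minus strand) encodes the very large mucin that carries the CA125 antigen and binds mesothelin. It was listed at 0.228 and 0.686 FPKM with DMSO, 0.133 and 0.670 FPKM at 2 h, 0.155 FPKM at 6 h and 0.0693 FPKM at 12 h. Replicate 2 was above replicate 1 in both groups, by 1.26 with DMSO and 1.73 at 2 h on the log2(FPKM + 0.1) scale. The 6 h and 12 h libraries were below both DMSO libraries, and 12 h was the lowest of the 6. On that scale the 12 h library was 0.95 below DMSO replicate 1 (log2 difference -0.95) and 2.21 below replicate 2 (log2 difference -2.21). MUC16 was under 1 FPKM throughout and entered no test.

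Adhesion genes of epithelial cells were expressed at every time. EPCAM (chr2:47345158-47387601, plus strand), the epithelial cell adhesion molecule, measured 79.6 and 82.0 FPKM with DMSO, 77.4 and 83.1 FPKM at 2 h, 81.9 FPKM at 6 h and 86.5 FPKM at 12 h. The 2 h libraries bracketed the DMSO libraries, and the lowest and highest of the 6 were close. The log2 difference at 2 h was -0.01 ± 0.16 (SE, limma adjusted p = 1.0, 95% interval -0.48 to 0.45), and EPCAM was 1.07-fold above the DMSO mean at 12 h.

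CDH1 (chr16:68737225-68835548, plus strand) encodes E-cadherin, the calcium-dependent adhesion protein of epithelial junctions. It measured 11.3 and 19.2 FPKM with DMSO, 11.7 and 19.3 FPKM at 2 h, 10.4 FPKM at 6 h and 12.8 FPKM at 12 h. The replicates of each group differed more than the groups did, the 6 h library was the lowest, and the 12 h library lay between the DMSO libraries. At 2 h the log2 difference was 0.03 ± 0.42 (SE, limma adjusted p = 1.0, 95% interval -1.21 to 1.27). The 6 h library was 0.13 below DMSO replicate 1 (log2 difference -0.13) and 0.88 below replicate 2 (log2 difference -0.88).

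The mesenchymal markers VIM and CDH2 lay at opposite ends of the expression range. VIM (chr10:17228259-17237593, plus strand), the intermediate filament protein of mesenchymal cells, measured 579.6 and 237 FPKM with DMSO, 603 and 250.4 FPKM at 2 h, 586 FPKM at 6 h and 415 FPKM at 12 h. Replicate 1 of both groups and the 6 h library were high, both replicates 2 were low, and the 12 h library lay between the DMSO libraries. At 2 h the log2 difference was 0.07 ± 0.70 (SE, limma adjusted p = 1.0), with a 95% interval of -2.003 to 2.14, the widest among the 7 expressed members. The 6 h library was 0.02 above DMSO replicate 1 and 1.30 above replicate 2 on the log2 scale, so its difference of 0.66 from the DMSO mean rested on replicate 2.

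VIM shares 24.4% of its exonic bases with VIM-AS1 and AL133415.1 on the opposite strand. VIM-AS1 was listed at 2.53 to 4.48 FPKM, far below VIM. CDH2 (chr18:27950966-28177446, minus strand), the N-cadherin of neural and mesenchymal junctions, was listed at 0.0194 and 0.0216 FPKM with DMSO, 0.0189 and 0 FPKM at 2 h, 0 FPKM at 6 h and 0.0203 FPKM at 12 h. Corrected for relative depth, each value above 0 was within 0.1 of the same single step, so no order among the libraries can be read.

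None of the expressed members passed a threshold against DMSO at any time. At 2 h limma called 3 of 13287 genes past an adjusted p of 0.05 and 2-fold (0.0226%), and none was a member. No member had an unadjusted p under 0.05, against 378 genes in all. The 2 h and DMSO libraries were apart in 0 of 7 expressed members and in 21.8% of all genes. More than 2-fold from the DMSO mean, there were 0 of 7 members at 2 h (2.98% of all genes), 0 of 7 at 6 h (8.76%) and 0 of 7 at 12 h (10.2%). More than 2-fold from each DMSO library there were 0 of 7 at 6 h (3.82% of all genes) and 0 of 7 at 12 h (4.87%), and 0 of 7 at both times in the same direction (2.46%). With 7 members and backgrounds of at most 10.2%, a count of 0 past 2-fold is also near what these percentages give. The share of 21.8% with libraries apart is larger, and 0 of 7 was not compared with it by a test. No difference between the members and other genes was shown.

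For the 7 expressed members the median log2 difference from DMSO was 0.03 (2 h), 0.02 (6 h) and 0.16 (12 h), beside -0.01, 0.03 and -0.05 for all genes. At 12 h PAX8, MSLN, EPCAM and CDX2 were above both DMSO libraries, CDH1, VIM and WFDC2 lay between them, and no expressed member was below both. At 6 h PAX8, VIM and CDX2 were above both DMSO libraries, CDH1 and WFDC2 were below both, and MSLN and EPCAM lay between. The DMSO libraries were close to each other for PAX8, MSLN, EPCAM and CDX2, where a small difference places a library above both.

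**Figure D2:**
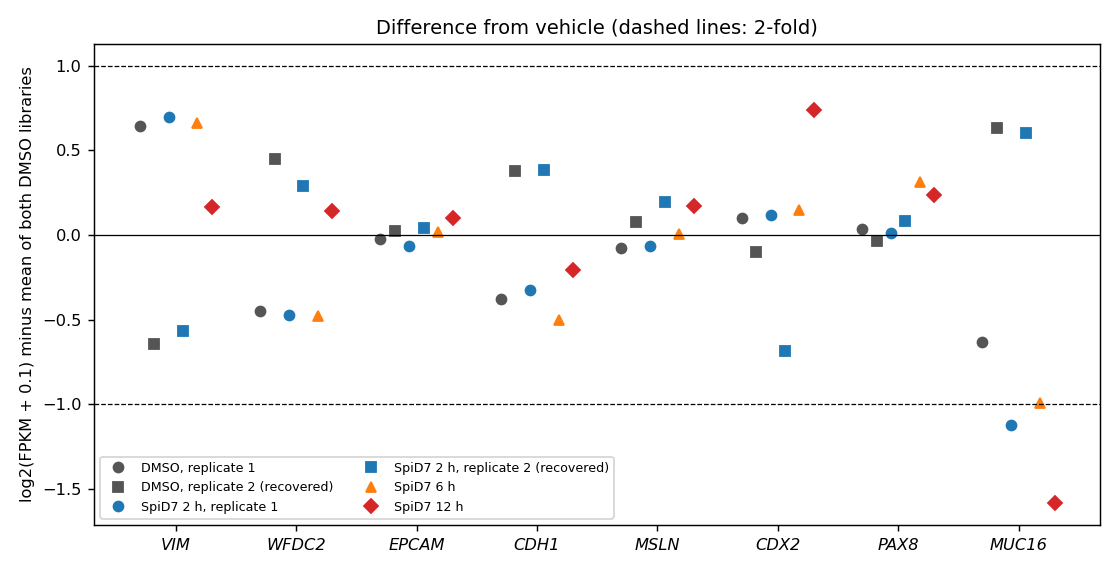
Difference of each library from the mean of both DMSO libraries, as log2(FPKM + 0.1), for the 7 expressed members and MUC16, with 1 symbol per library and dashed lines at 2-fold. All symbols of the 7 expressed members lie within the dashed lines, and the DMSO libraries of VIM, WFDC2 and CDH1 (gray) spread more widely than those of PAX8, MSLN, EPCAM and CDX2.

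VIM, WFDC2 and CDH1 differed between replicates in the same direction, and by a similar size, in the DMSO and 2 h groups. VIM was 2.44-fold lower in replicate 2 than in replicate 1 with DMSO and 2.41-fold lower at 2 h. WFDC2 and CDH1 were higher in replicate 2 in both groups, CDH1 by 1.69-fold with DMSO and by 1.64-fold at 2 h. The direction from replicate 1 to 2 was the same in both groups for 6 of 7 expressed members, near the 83.9% of all genes, and 1 of 7 (VIM) also passed 2-fold in both, beside the 7.61% of all genes given above. VIM thus varied opposite to WFDC2 and CDH1 between replicates, and whether the culture or the library preparation differed cannot be told apart. Within replicate 1 alone, the log2 difference at 2 h was 0.06 for VIM, 0.05 for CDH1 and -0.02 for WFDC2, and within replicate 2 it was 0.08, 0.01 and -0.16.

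**Figure D3:**
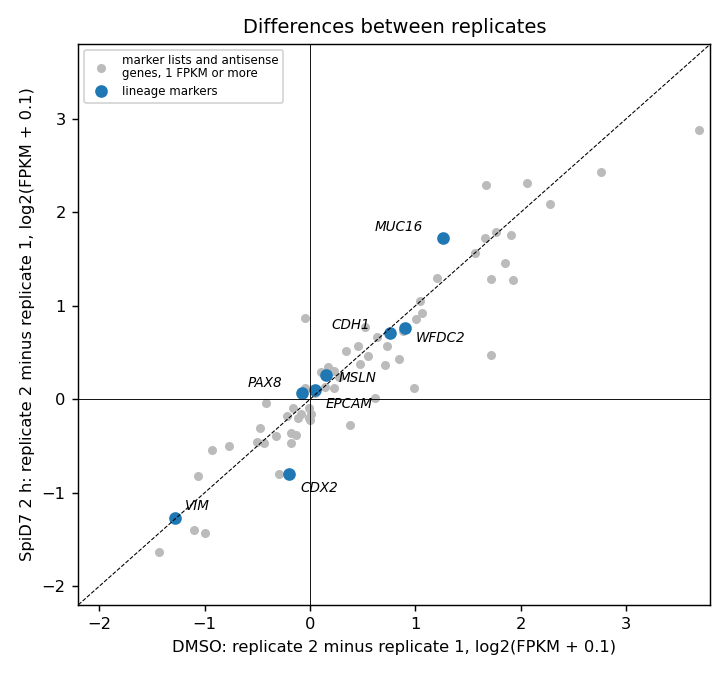
Replicate 2 minus replicate 1 on the log2(FPKM + 0.1) scale, in the DMSO libraries (horizontal) and the 2 h libraries (vertical), with blue points for lineage markers and gray points for expressed genes of the marker lists. VIM lies at -1.29 and -1.27, WFDC2 at 0.90 and 0.77 and CDH1 at 0.75 and 0.71, close to the dashed line of equal difference.

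Other genes of these lineages were counted in 5 lists. Of 20 further Müllerian and ovarian genes, 8 reached a mean of 1 FPKM, led by BCAM (61.2 FPKM), an adhesion receptor for laminin, CRABP2 (35.1 FPKM), a retinoic acid binding protein, and KLK6 (10.6 FPKM), a secreted serine protease. SOX17, a Müllerian transcription factor that acts with PAX8, EMX2 and PGR were listed at 0 in every library, and PAX2 reached at most 0.327 FPKM. Of 29 gastrointestinal genes, 9 reached 1 FPKM, led by KRT20 (24.3 FPKM), a keratin of intestinal epithelium, CEACAM6 (15.5 FPKM), a surface glycoprotein, and GATA4 (11.7 FPKM), a transcription factor of foregut endoderm. CDX1, the paralog of CDX2, reached at most 0.04996 FPKM, and HNF4A, a nuclear receptor of gut and liver epithelium, reached at most 0.361 FPKM, in the 12 h library. Both shares were below that of all gene symbols, of which 13287 of 29982 reached this mean, so the counts mark neither lineage. Defining transcription factors of each list were at or near 0 beside PAX8 and CDX2.

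Of 31 genes of epithelial junctions and identity, 30 reached 1 FPKM, led by the simple epithelial keratins KRT8 (1784 FPKM), KRT18 (1611 FPKM) and KRT7 (313 FPKM). Of 21 mesenchymal genes, 10 did, led by S100A4 (1264 FPKM), a calcium-binding protein, TGFBI (134 FPKM), a matrix protein, and SNAI1 (35.0 FPKM). Of 10 markers of other cell types, 4 were at 1 FPKM or more, led by CALB2 (64.3 FPKM), CD68 (28.1 FPKM) and UPK3B (23.4 FPKM). Among leukocyte genes, PTPRC and CD3E were below 1 FPKM, whereas CD68 measured 22.7 to 37.3 FPKM over the 6 libraries. The endothelial gene VWF was below 1 FPKM, whereas PECAM1, an adhesion molecule of endothelial and some blood cells, had a mean of 3.57 FPKM. PECAM1 measured 0.736 and 10.7 FPKM with DMSO, 0.962 and 7.74 FPKM at 2 h, 0.3202 FPKM at 6 h and 0.942 FPKM at 12 h, high in replicate 2 of both groups and low in the other libraries. The summed level of the 10 markers of other cell types was 133 and 114 FPKM with DMSO, 129.6 and 97.7 FPKM at 2 h and 128 and 118 FPKM at 6 h and 12 h. CALB2 moved with the replicates as VIM did, at 90.3 and 33.4 FPKM with DMSO and 89.2 and 28.6 FPKM at 2 h. The other expressed genes of that list, UPK3B, CD68 and PECAM1, went the other way, higher in replicate 2 of both groups. UPK3B measured 15.9 and 32.0 FPKM with DMSO and 16.3 and 29.65 FPKM at 2 h. A part of CALB2 in the VIM difference was not tested.

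**Figure D4:**
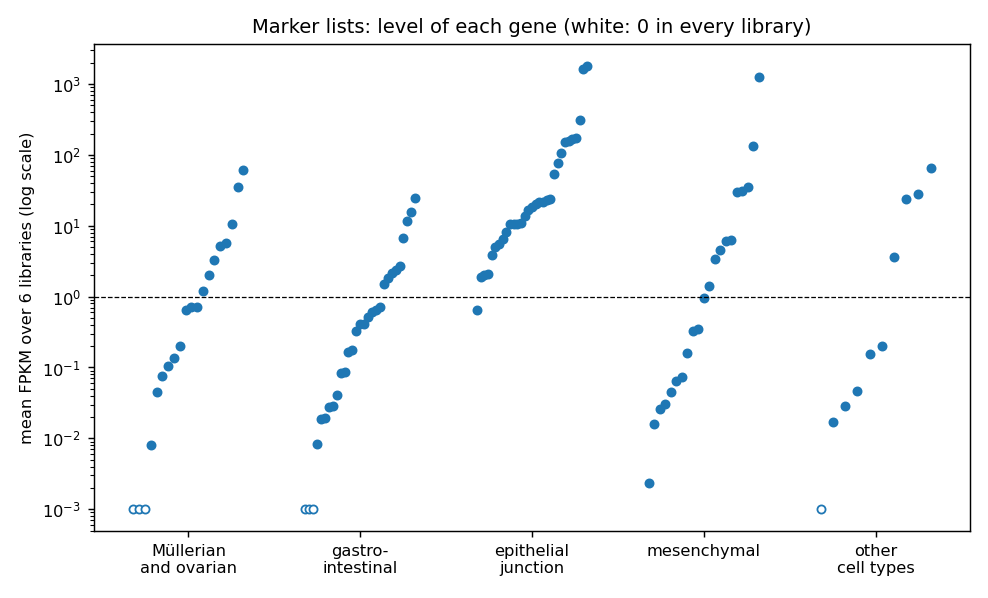
Mean FPKM over the 6 libraries (log axis) of each gene of the 5 marker lists, with 1 point per gene, a dashed line at 1 FPKM and white points for genes at 0 in every library. In the epithelial junction list 30 of 31 genes lie above the line, against 8 of 20 Müllerian, 9 of 29 gastrointestinal and 10 of 21 mesenchymal genes. Of all gene symbols, 13287 of 29982 reached this mean.

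Under SpiD7, no gene of the 5 lists passed limma at 2 h, where 0.0226% of all genes were called. More than 2-fold from the DMSO mean at 2 h were 1 of 8 expressed Müllerian genes (FOXJ1, higher), 1 of 9 gastrointestinal genes (TFF2, lower), 0 of 30 epithelial genes, 1 of 10 mesenchymal genes (SNAI1, higher) and 0 of 4 genes of other cell types, beside 2.98% of all genes. At 6 h the counts were 2 higher and 1 lower of 8 Müllerian genes, 2 higher of 9 gastrointestinal genes, 1 higher and 3 lower of 30 epithelial genes, 2 higher of 10 mesenchymal genes and 1 lower of 4 genes of other cell types, beside 8.76%. At 12 h they were 2 higher and 1 lower, 1 higher and 1 lower, 1 lower, 1 higher and 1 lower, and 1 lower, in the same order, beside 10.2%. The median log2 difference at 12 h was -0.14 for Müllerian, 0.27 for gastrointestinal, -0.04 for epithelial and -0.41 for mesenchymal genes, with -0.05 for all genes. FOXJ1 and GATA6 had a DMSO mean under 1 FPKM and passed the filter through the SpiD7 libraries, whose mean was higher. Without them the Müllerian counts were 0 of 7 at 2 h and 1 higher and 1 lower at both 6 h and 12 h, and the gastrointestinal counts were 1 lower of 8 at 2 h, 1 higher at 6 h and 1 lower at 12 h. Their medians at 12 h were then -0.41 and 0.17. These lists are short, and at 6 h and 12 h no count has a replicate check.

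Of the 61 list genes with a mean of at least 1 FPKM, 3 (SNAI1, KLK6 and FOXJ1) were more than 2-fold from each DMSO library in the same direction at both 6 h and 12 h, beside 2.46% of all genes. SNAI1, the zinc-finger repressor of CDH1, measured 6.48 and 12.95 FPKM with DMSO, 33.8 and 36.7 FPKM at 2 h, 70.1 FPKM at 6 h and 50.0 FPKM at 12 h. All 4 SpiD7 libraries were above both DMSO libraries. The log2 difference at 2 h was 1.93 ± 0.41 (SE, limma unadjusted p = 0.0126, adjusted p = 1.0), and at 12 h it was 2.44 above the DMSO mean. CDH1 at 6 h (10.4 FPKM) was below both DMSO libraries, with a log2 difference of -0.13 from replicate 1 and -0.88 from replicate 2. Its difference of -0.50 from the DMSO mean thus rested mostly on replicate 2. CDH1 lay between the DMSO libraries at 12 h and overlapped them at 2 h, and a link to SNAI1 was not tested.

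KLK6 measured 5.89 and 2.91 FPKM with DMSO, 7.23 and 2.62 FPKM at 2 h, 16.1 FPKM at 6 h and 28.8 FPKM at 12 h. Its 2 h libraries overlapped the DMSO libraries, while the 6 h and 12 h libraries were above both. FOXJ1, the regulator of motile cilia found in ciliated cells of the Fallopian tube, measured 0.260 and 0.355 FPKM with DMSO, 1.44 and 2.11 FPKM at 2 h, 2.1 FPKM at 6 h and 0.910 FPKM at 12 h. All 4 SpiD7 libraries were above both DMSO libraries. FOXJ1 reached a mean of 1 FPKM only through the SpiD7 libraries, so its passing the filter already required a difference, and no test is given for it. With a pseudocount of 1 in place of 0.1, its log2 difference at 12 h was 0.55 instead of 1.32 and no longer passed 2-fold.

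Also more than 2-fold above each DMSO library at both 6 h and 12 h were 3 list genes with a mean under 1 FPKM, which entered no test. MUC2, the gel-forming mucin of intestinal goblet cells, was listed at 0.0456 and 0.236 FPKM with DMSO, 0.00557 and 0.193 FPKM at 2 h, 0.801 FPKM at 6 h and 1.21 FPKM at 12 h. LGALS4, a galectin of intestinal epithelium, was listed at 0.0649 and 0.0724 FPKM with DMSO, 0.127 and 0.0843 FPKM at 2 h, 0.291 FPKM at 6 h and 0.409 FPKM at 12 h. PAX2, a relative of PAX8, was at 0.0184 and 0.0206 FPKM with DMSO, 0.0180 and 0.0240 FPKM at 2 h, 0.327 FPKM at 6 h and 0.212 FPKM at 12 h. For each of these genes the 6 h and 12 h libraries were the highest of the 6, at levels below most expressed genes and with 1 library at each time.

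Further transcription factors of epithelial and mesenchymal identity differed in both directions. SNAI2, a relative of SNAI1, measured 2.69 and 3.54 FPKM with DMSO, 4.83 and 3.98 FPKM at 2 h, 7.04 FPKM at 6 h and 4.95 FPKM at 12 h, with all SpiD7 libraries above DMSO (2 h limma adjusted p = 1.0). ZEB1, another repressor of CDH1, measured 7.25 and 5.31 FPKM with DMSO, 7.92 and 5.70 FPKM at 2 h, 6.43 FPKM at 6 h and 4.51 FPKM at 12 h, with overlapping groups at 2 h. ZEB2 stayed between 0.295 and 0.412 FPKM, and TWIST1 between 0.0329 and 0.122 FPKM. GRHL2, an activator of epithelial genes including CDH1, measured 4.48 and 5.27 FPKM with DMSO, 4.04 and 4.398 FPKM at 2 h, 2.43 FPKM at 6 h and 2.49 FPKM at 12 h. Its 6 h and 12 h libraries were the lowest of the 6. OVOL1, a repressor of mesenchymal genes, measured 2.11 and 3.52 FPKM with DMSO, 4.53 and 5.84 FPKM at 2 h, 9.04 FPKM at 6 h and 4.73 FPKM at 12 h, so that all SpiD7 libraries were above DMSO (2 h limma adjusted p = 1.0). Its relative OVOL2 was at 0.218 to 1.28 FPKM, with DMSO replicate 2 the highest.

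EHF and ELF3, epithelial factors of the ETS family, were more than 2-fold below the DMSO mean at 6 h, and EHF also at 12 h. EHF measured 9.56 and 46.6 FPKM with DMSO, 8.16 and 35.0 FPKM at 2 h, 5.34 FPKM at 6 h and 6.10 FPKM at 12 h, so that the 6 h and 12 h libraries were below both DMSO libraries. Its log2 difference was -0.83 from DMSO replicate 1 and -3.10 from replicate 2 at 6 h, and -0.64 and -2.91 at 12 h, under 2-fold from replicate 1. ELF3 measured 7.53 and 28.9 FPKM with DMSO, 8.37 and 20.4 FPKM at 2 h, 6.38 FPKM at 6 h and 11.1 FPKM at 12 h. At 6 h its log2 difference was -0.235 from DMSO replicate 1 and -2.16 from replicate 2. As for CDH1, replicate 2 was the higher in both groups. JUP, of the same list, was also more than 2-fold below the DMSO mean at 6 h. Its log2 difference was -0.184 from DMSO replicate 1 and -2.095 from replicate 2, so it rested on replicate 2.

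**Figure D5:**
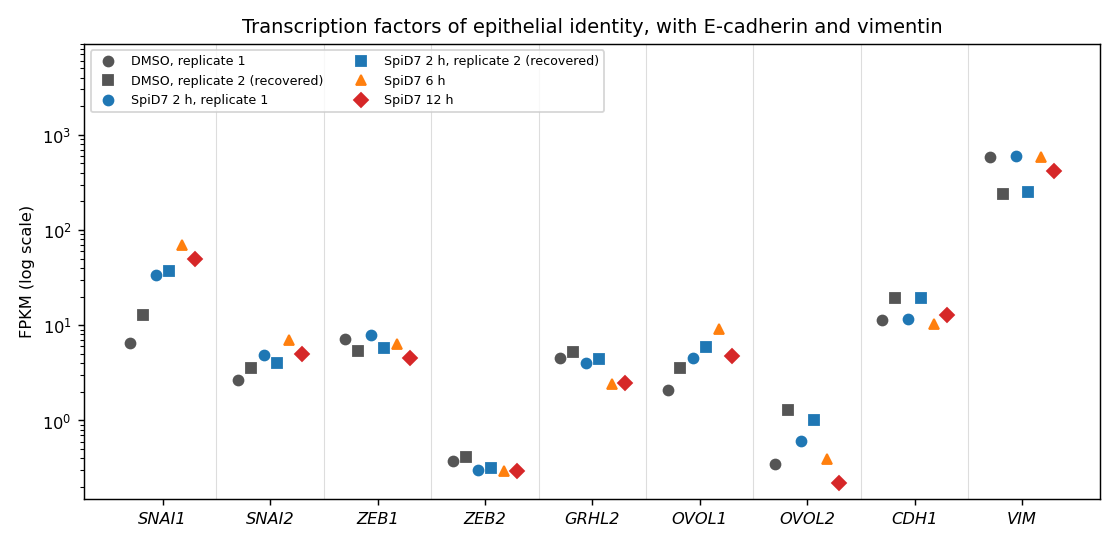
FPKM (log axis) of transcription factors of epithelial and mesenchymal identity, with CDH1 and VIM, in each library (1 symbol per library). SNAI1 lies at 6.48 and 12.95 FPKM in the DMSO symbols and between 33.8 and 70.1 FPKM in the SpiD7 symbols, while CDH1 lies between 10.4 and 19.3 FPKM.

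Promoters were searched for CAGGTG, an E-box that SNAI1 and ZEB1 bind, on both strands of the 250 bases before each start site of RefSeq (GRCh38.p14). RefSeq promoters were matched for 7 of 10 members, with 12 start sites, and CDH1, EPCAM and MSLN had no entry. The motif stood in 1 of 2 MUC16 promoters, at -159, and in the WFDC2 promoter, at -17, and 17.5% of 35116 promoters hold it. Both MUC16 start sites (9065751 and 9010409) lie upstream of the measured MUC16 locus, which ends at 8981342. The WFDC2 start site (45469753) lies inside the GENCODE gene, which begins at 45469706, and so does its motif. The 100 bases before the start of WFDC2 and VIM are shown, since they are the members with the highest expression and varied in opposite directions between replicates. Capitals mark the motif, read on the plus strand as its reverse complement CACCTG, and a match is a description, not a bound site.
WFDC2, chr20:45469653-45469752, plus strand: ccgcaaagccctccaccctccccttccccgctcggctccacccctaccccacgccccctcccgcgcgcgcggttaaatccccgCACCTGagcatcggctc
VIM, chr10:17228141-17228240, plus strand: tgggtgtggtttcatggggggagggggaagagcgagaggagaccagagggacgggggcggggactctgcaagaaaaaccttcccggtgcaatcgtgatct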

How the data were processed

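Members and gene lists were chosen with earlier results of these data known. The authors deposited FPKM for both sides of 4 Cuffdiff comparisons, with fold changes, p-values and q-values, which were not used. Upstream steps were trimming of single-end reads (Trim Galore), alignment (TopHat 2.0.8) and estimation (Cufflinks and Cuffdiff 2.1.1). The methods name a mouse build, whereas the deposited loci are human (hg38). 0 FPKM columns were without a sample or group.

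No row above 0 in the first library was at 0 in the second column of its group. Near their lower end, the ratios of the second column to the first gathered at a fixed share. It was 0.526 for DMSO (811 rows) and 0.509 for 2 h (964 rows), and rows under it were not counted. These columns are named as replicate 2 but were read as group means from these ratios. Replicate 2 was obtained by subtraction, which assumes equal weights and was not described by the authors. Remainders smaller than 0.2% of the mean were set to 0. The 6 h and 12 h comparisons were scaled through DMSO replicate 1 (factors 0.972 and 0.994). No read counts were given, so counting errors cannot be stated, and a 0 can be a failed estimate.

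Rows of a symbol were summed. Genes with a mean of at least 1 FPKM were tested at 2 h by limma 3.58.1 in R 4.3.3 on log2(FPKM + 0.1), with Benjamini-Hochberg adjustment, a scale that understates changes of low genes. Single libraries at 6 h and 12 h were not tested. Tables were handled in Python 3.11.15. The test was checked on simulated data with the same small spread for every gene and no replicate effect. The DMSO libraries differed by a median absolute log2 difference of 0.387, so that check does not cover the spread seen here. Coordinates and strand overlaps are from GENCODE 29. Named genes are all members and, of each list, the 3 highest, those over 2-fold from each DMSO library at both late times, and transcription factors. TFF2, GATA6, PECAM1, EHF, ELF3, JUP, PGR, PTPRC, CD3E, VWF, WT1-AS, PAX8-AS1 and VIM-AS1 were named after their values were seen. Alternatives were other pseudocounts, filters, scalings, treatment of repeated symbols, a replicate block and an intensity trend. Further ones were the columns read as group means and leaving out each replicate.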

Additional observations from a re-analysis of the deposited data

How the results depend on the processing

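The number of genes called by limma at 2 h was 3 and rested on the setting. It was 1 with a pseudocount of 1, 6 with 0.01, 1 with median-ratio and 1 with upper-quartile scaling, 5 with an intensity trend, 0 without a filter on low values, and 0 to 21 when a replicate was left out (0 without 2 h replicate 1 and 21 without 2 h replicate 2). A lone sample left in a group was assumed to vary like the other group. With the replicate number as a block, 0 genes were called and 1874 had an unadjusted p under 0.05, against 378 without it. Deviations of same-numbered libraries correlated at 0.369 over genes, but the labels do not say that a number marks a batch. No alternative gave a member an adjusted p under 0.05 (95 fits, lowest 0.537, for CDX2).

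The number of members at 1 FPKM or more was 7 under all 5 alternatives run. The number over 2-fold was 0 at every time under the alternatives run, except at 6 h without DMSO replicate 1, where it was 1 (VIM, range 0 to 1). The first libraries only, an alternative chosen after seeing the data, gave 7 and 0. The columns read as group means allow no limma fit and so no count of calls.

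Directions at 2 h that turned had differences smaller than their standard errors. Leaving out each replicate in turn gave log2 differences of -0.067 to 0.196 for MSLN, -0.063 to 0.04 for EPCAM, -0.349 to 0.405 for CDH1, -0.577 to 0.71 for VIM, -0.542 to 0.359 for WFDC2, -0.684 to 0.117 for CDX2, -0.12 to 0.346 for ZEB1, and -0.645 to 0.787 for KLK6. Median-ratio scaling gave -0.002 for CDH1. Of 384 single-gene values under alternatives, 31 changed sign, 18 of them at 2 h, 8 at 6 h and 5 at 12 h. At 12 h, VIM was -0.481 and CDH1 0.172 without DMSO replicate 2, and WFDC2 was -0.31 without DMSO replicate 1. At 6 h, MSLN and EPCAM were at -0.04 and -0.029 with median-ratio scaling, and ZEB1 was -0.172 without DMSO replicate 2. With the first libraries only, PAX8 was -0.024 and CDX2 0.018 at 2 h. The cause was not tested.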
